A study of Homo sapiens with 6 samples.

Results

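The records of ZNF469 CUT&RUN at 10 ADAMTS genes (ADAMTS1, ADAMTS2, ADAMTS4, ADAMTS5, ADAMTS6, ADAMTS9, ADAMTS12, ADAMTS14, ADAMTS16 and ADAMTS17) are described here. A record is 1 entry of a deposited peak list, and it was assigned to a gene when it overlapped the gene body or the 20 kb on either side by at least 1 bp. The 10 genes are among 20033 protein-coding genes, and they took 38 of the 19108 records of full-length ZNF469 and 0 of the 54 records of dZF-ZNF469. The genes were selected on the measured records themselves, with the high summit values of ADAMTS6, ADAMTS12 and ADAMTS16 set against the procollagen processors ADAMTS2 and ADAMTS14, so the counts and levels below describe the members and carry no test.

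CUT&RUN directs a nuclease with an antibody, here against ZNF469, so that the chromatin around the target is cut out and sequenced. It was performed in LX-2, an immortalized human hepatic stellate cell line, with 3 libraries in each of 2 groups. One group, labelled clone3.4, carried a doxycycline-inducible transgene for full-length ZNF469, and the other, labelled clone3.1, carried dZF-ZNF469, which lacks 6 of the 8 zinc fingers. Both were selected as stable lines (with puromycin in the series text and Geneticin in the study's methods), grown in medium holding 2-Phospho-L-ascorbic acid at 50 mM, and given 1 ug/mL doxycycline for 24 h. The signal is that of an induced transgene, the labels do not say whether a clone name stands for cells or for a plasmid, and construct and line cannot be told apart. Each deposited list pools the 3 libraries of its group, so no value per library and no replicate error could be given. The pileup, the number of pooled fragments over a summit, and the local background, the number that the peak caller expected there, were recovered from the deposited values. Pileups are given with 95% Poisson limits, which cover counting error only.

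ADAMTS proteins are secreted metalloproteases of the extracellular matrix, each with a disintegrin-like module and thrombospondin type 1 repeats. ADAMTS1, ADAMTS4, ADAMTS5 and ADAMTS9 cleave the large aggregating proteoglycans aggrecan and versican. ADAMTS2 and ADAMTS14, with ADAMTS3, remove the N-propeptide from fibrillar procollagens, a step that hepatic stellate cells need when they lay down collagen in fibrosis. ADAMTS6 and ADAMTS17 act on or near fibrillin microfibrils, ADAMTS12 has been linked to cartilage oligomeric matrix protein, and the substrates of ADAMTS16 are less well defined.

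The DNA under the highest summits is given first, since it is what the records of the high-pileup genes point to. Each line holds 201 bases of hg38 (plus strand, 5′ to 3′) centred on the summit of the highest record of ADAMTS16, ADAMTS6, ADAMTS12 and ADAMTS14, and matches to TGANTCA, the motif of the AP-1 factors, are in capitals. The last line, from another ADAMTS6 summit with a pileup of 49, was chosen after the values were seen because it holds 2 matches close to the summit. The ADAMTS16 window lies in intron 2, both ADAMTS6 windows in intron 20, the ADAMTS12 window in intron 2 and the ADAMTS14 window upstream of the gene, inside an intron of PALD1.
ADAMTS16 chr5:5145862-5146062: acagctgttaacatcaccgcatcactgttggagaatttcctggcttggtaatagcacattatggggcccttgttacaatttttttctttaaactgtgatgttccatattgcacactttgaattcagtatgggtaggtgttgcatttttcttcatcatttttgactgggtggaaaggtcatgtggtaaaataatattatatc
ADAMTS6 chr5:65198966-65199166: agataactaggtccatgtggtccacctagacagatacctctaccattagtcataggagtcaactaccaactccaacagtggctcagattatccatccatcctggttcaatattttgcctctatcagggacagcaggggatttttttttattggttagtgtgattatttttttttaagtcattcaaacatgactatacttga
ADAMTS12 chr5:33843621-33843821: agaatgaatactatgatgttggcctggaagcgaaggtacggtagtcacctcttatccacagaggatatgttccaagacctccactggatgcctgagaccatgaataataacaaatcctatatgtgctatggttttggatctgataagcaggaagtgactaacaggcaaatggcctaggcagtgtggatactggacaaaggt
ADAMTS14 chr10:70656620-70656820: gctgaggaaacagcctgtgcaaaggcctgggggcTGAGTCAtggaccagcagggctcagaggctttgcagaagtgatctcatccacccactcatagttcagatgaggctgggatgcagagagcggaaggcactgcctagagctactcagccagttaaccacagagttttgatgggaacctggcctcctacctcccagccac
ADAMTS6 chr5:65209412-65209612: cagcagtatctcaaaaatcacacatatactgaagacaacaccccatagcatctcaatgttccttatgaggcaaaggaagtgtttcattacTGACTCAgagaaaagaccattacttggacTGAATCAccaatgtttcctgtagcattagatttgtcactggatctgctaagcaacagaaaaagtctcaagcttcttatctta
The windows of the highest ADAMTS16, ADAMTS6 and ADAMTS12 summits held no TGANTCA match, and the 1 match that the ADAMTS16 record had within 150 bp of its summit fell outside the printed bases. The ADAMTS14 window held 1, with its centre 63 bp to the left of the summit, and the last ADAMTS6 window held matches with centres 7 bp to the left and 22 bp to the right.

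Of the 10 members, 7 had at least 1 full-length record in the body or flanks, beside 52.0% of all protein-coding genes. In the body alone there were 5 (ADAMTS6, ADAMTS9, ADAMTS12, ADAMTS16 and ADAMTS17), beside 33.6% of all protein-coding genes and 61.1% of those at least 100 kb long. The members were chosen with these records known, and nothing is read from these counts. ADAMTS1, ADAMTS2 and ADAMTS5 had none. The records were unevenly divided: 14 were at ADAMTS12, 11 at ADAMTS16 and 6 at ADAMTS6, and these 31 made up 81.6% of the 38. ADAMTS4 had 3, ADAMTS14 had 2, and ADAMTS9 and ADAMTS17 had 1 each.

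Pileups at the members ran from 14 to 79 fragments with a median of 31, and those of the whole full-length list from 4 to 277 with a median of 20. A pileup of 42 or more placed a record in the upper 5% of the list (971 records, 5.08%). At the members 14 records, or 36.8%, reached it: 4 at ADAMTS6, 5 at ADAMTS12 and 5 at ADAMTS16. Of all protein-coding genes, 4.1% had such a record. The member record just inside this limit had a pileup of 42 and the one just outside 39, both at ADAMTS16.

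**Figure D1:**
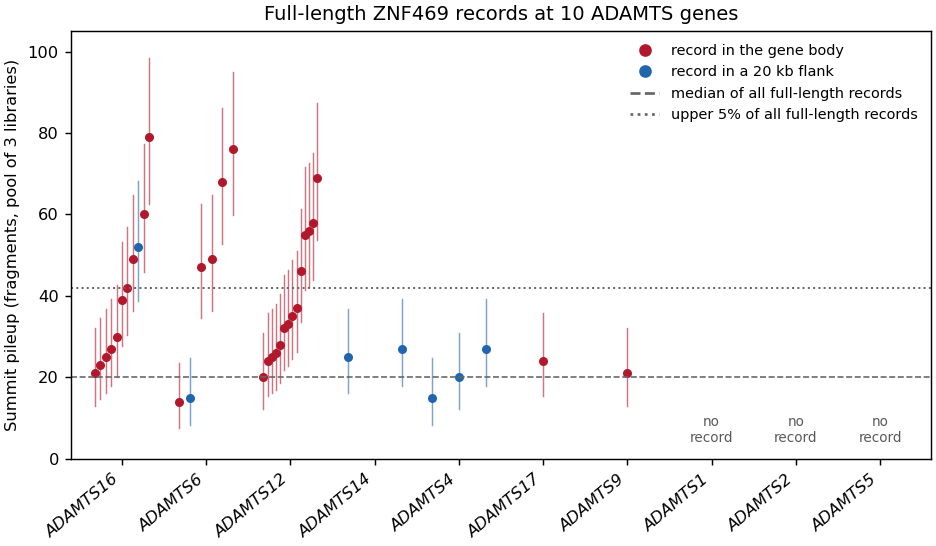
Summit pileup (fragments in the pool of 3 libraries) of each full-length record at the 10 members, ordered by highest pileup, with vertical lines for the 95% Poisson limits. ADAMTS16, ADAMTS6 and ADAMTS12 reach 79, 76 and 69 fragments, the records of ADAMTS14, ADAMTS4, ADAMTS17 and ADAMTS9 stay at or below 27, and ADAMTS1, ADAMTS2 and ADAMTS5 have no record.

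By highest pileup the members came in the order ADAMTS16, ADAMTS6 and ADAMTS12, then ADAMTS14 and ADAMTS4, then ADAMTS17 and ADAMTS9. The first 3, at 79 (62.5 to 98.5), 76 (59.9 to 95.1) and 69 (53.7 to 87.3), had limits that overlapped one another and so were not separated by counting error. The following 4, at 27 (17.8 to 39.3) for both ADAMTS14 and ADAMTS4, 24 (15.4 to 35.7) for ADAMTS17 and 21 (13.0 to 32.1) for ADAMTS9, overlapped one another as well. The limits of ADAMTS12 and of ADAMTS14 did not overlap, but the members were chosen for this contrast and nothing is read from the gap. Each value is also the highest of a gene's records (14 at ADAMTS12 and 2 at ADAMTS14), which the limits do not cover. The order changed when records were ranked by fold enrichment, the quantity (pileup + 1)/(background + 1): only ADAMTS4, at 12.5, reached the upper 5% of folds (11.1 or more), and ADAMTS16 stood near the bottom of the members at 8.47.

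Among the proteoglycanases, ADAMTS9, which also acts in the secretory pathway and in development, was the only gene with a record in its body. It lies on the minus strand of chromosome 3 (64515654 to 64688000), and its record (64685911 to 64686354) had a pileup of 21 over a background of 2.17, at a fold of 6.93. The summit was in intron 2, 1.99 kb from the gene's start, in DNA that also belongs to the antisense RNA gene ADAMTS9-AS2. This was the only record of the 31 in member bodies that lay within 3 kb of the start of the member gene.

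ADAMTS4, an aggrecanase on chromosome 1 (161184302 to 161199054), had no record in its 14.8 kb body. Its 3 flank records had pileups of 27, 20 and 15 and folds of 12.5, 5.98 and 6.34. The first lay in PPOX, an enzyme of heme synthesis, and the last in FCER1G, the gamma chain of Fc receptors, each within 3 kb of a transcript start. The second lay 2.56 kb upstream of the ADAMTS4 start.

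ADAMTS1 and ADAMTS5, which sit close together on chromosome 21 (26835755 to 26845409 and 26917922 to 26967088), had no record in the body or in 20 kb on either side. Within 200 kb on both sides each had 1. A gene with no record had no summit that passed the authors' filter in this pool, which does not show that ZNF469 was absent there.

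The procollagen processors had 0 and 2 records and none in their bodies. Of the 20033 protein-coding genes, 5385 had at least as many records as ADAMTS14. ADAMTS2, the main procollagen N-proteinase, spans 235 kb of chromosome 5 (179110853 to 179345461), and its body and flanks held 0 records, with 1 within 200 kb on both sides. ADAMTS14, the related enzyme on chromosome 10 (70672506 to 70762441), had none in its 89.9 kb body and 2 upstream, at 15.8 and 7.61 kb from its start. They had pileups of 27 and 25, backgrounds of 2.01 and 1.5 and folds of 9.31 and 10.4, and both lay in introns of the neighbouring gene PALD1. The pileups were above the median of the full-length list (20) but far under the highest at ADAMTS16 (79) and ADAMTS6 (76). The folds were above the highest fold of ADAMTS16 (8.47). ADAMTS2 is longer than ADAMTS16 (180 kb, 11 records), and ADAMTS17 (371 kb, 1 record) is about as long as ADAMTS12 (368 kb, 14 records). Of all protein-coding genes 33.6% had a body record, and of those at least 100 kb long 61.1%. The part of gene length in the members' records was not tested.

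ADAMTS12 held the most records. It lies on the minus strand of the short arm of chromosome 5 (33523535 to 33892019), and its 14 records, all in the body and all in introns, had pileups of 20 to 69 (median 34), backgrounds of 2.78 to 7.77 (median 5.43) and folds of 3.76 to 10.8 (median 6.26). Intron 2, which makes up 35.2% of the gene at 129.6 kb, held 11 of them, with 2 more in intron 3 and 1 in intron 16. The 5 records in the upper 5% all lay in intron 2, within 37.4 kb of one another and between 37.2 and 74.6 kb from the start. From the start inward their pileups were 55, 69, 56, 46 and 58, with backgrounds of 7.76, 5.47, 5.40, 5.53 and 5.87. They had folds of 6.40, 10.8, 8.91, 7.2 and 8.59. A sixth record inside that stretch stood apart, with a pileup of 32 over a background of 7.77. The high records thus formed a block in the early part of the gene with neighbours of moderate pileup: between 83.3 and 110 kb from the start 5 further records had pileups of 33, 37, 26, 35 and 28, and beyond it 3 had pileups of 20, 25 and 24. Records covered 1.90% of the gene body, at 3.80 per 100 kb, against 1.00 per 100 kb in the 200 kb on both sides. Of all protein-coding genes, 35 had at least as many records as ADAMTS12, 73 as many as ADAMTS16 and 440 as many as ADAMTS6, each count including the gene itself.

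ADAMTS16, at the far end of the same arm (plus strand, 5140330 to 5320304), had 11 records, 10 in the body and 1 downstream. Their pileups ran from 21 to 79 (median 39) and their backgrounds from 2.46 to 8.45 (median 4.34). The highest (5145649 to 5146422) was 5.63 kb from the start with its summit in intron 2, overlapped exon 3, and stood at a fold of 8.47 over a background of 8.45. The second, with a pileup of 60, lay 25.4 kb from the start in intron 3, and both also overlapped a noncoding gene without a symbol. The 10 body records were spread along the gene rather than grouped in 1 intron: they fell in introns 2, 3, 8, 9, 18 and 21, and 5 of the 10 were nearer the end of the gene than its start. The body records in the upper 5% had pileups of 79, 60, 49 and 42 and spanned 142 kb. The downstream record, which lay outside any gene, had a pileup of 52. Records covered 3.31% of the gene body, at 5.56 per 100 kb, and the 200 kb on both sides were also dense at 3.50 per 100 kb.

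ADAMTS6, on the long arm of chromosome 5 (minus strand, 65148738 to 65481920), differed from both in where its records lay. All 5 body records were in the last part of the 333 kb gene, at least 272 kb from its start. The 4 highest had pileups of 49, 68, 76 and 47, backgrounds of 3.89, 8.62, 9.75 and 5.36, and folds of 10.2, 7.17, 7.16 and 7.55, in the direction of transcription. They spanned 19.0 kb in introns 20 and 21, which make up 5.29% and 2.64% of the gene. The highest (65198606 to 65199333) overlapped an exon of a shorter ADAMTS6 transcript, and its summit was 0.30 kb from the start of 1 of the 8 annotated transcripts. The other 2 records had pileups of 14 in the body and 15 downstream. At 1.5 per 100 kb, the body of ADAMTS6 was no denser than the 200 kb on both sides, at 1.5.

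**Figure D2:**
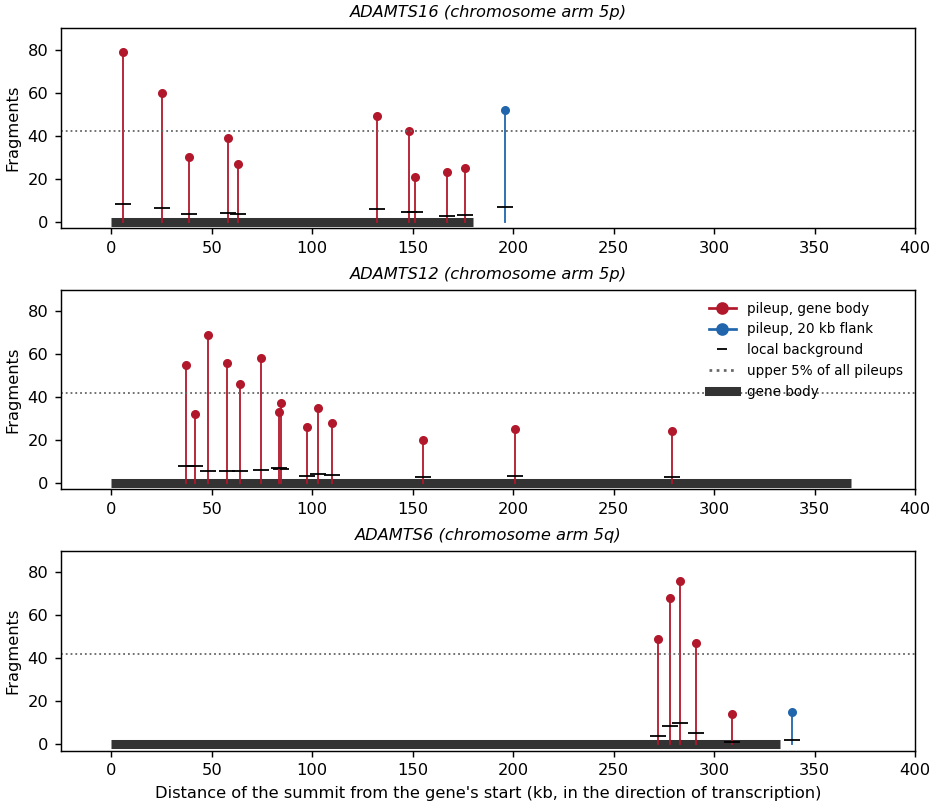
Pileup (stems) and local background (dashes), both in fragments, of each full-length record of ADAMTS16, ADAMTS12 and ADAMTS6 against the distance of its summit from the gene's start in kb. The high records of ADAMTS12 lie between 37.2 and 74.6 kb, those of ADAMTS6 between 272 and 291 kb, and those of ADAMTS16 are spread from 5.63 kb into the downstream flank.

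ADAMTS17, a protease of the microfibril-associated branch on chromosome 15 (99971437 to 100342005), had 1 record in 371 kb. It lay in intron 18 with a pileup of 24 over a background of 1.57, at a fold of 9.74, and there was none within 200 kb on both sides.

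Most member records were intronic. Of the 31 in member bodies, 28 overlapped no exon of any transcript of their gene and 3 did. Of these 3, 2 overlapped an exon of the canonical transcript. Each record was classed over its whole width, first by a transcript start within 3 kb, then by an exon, then by an intron. By this class 27 of the 38 (71.1%) were intronic and 7 (18.4%) lay within 3 kb of a transcript start, against 35.8% and 39.3% of the full-length list. At ADAMTS6, ADAMTS12 and ADAMTS16 the shares were 77.4% and 9.68% of 31 records, and at the other members 42.9% and 57.1% of 7. Member records were taken from gene bodies and 20 kb flanks, while 21.8% of the full-length list was intergenic. The member records and the list thus differ by the rule of assignment, and nothing is read from the difference. The members' median width of 515.5 bp and median GC content around the summit of 42.5% stood beside 440 bp and 45.2% for the list. The IDR score, which is highest for peaks ranked alike in replicates, was at its maximum in 57.9% of member records and 33.0% of all records. Among all records on the short arm of chromosome 5 the share was 50.4%. The members were chosen with their high pileups known, and nothing is read from these shares.

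The high pileups went with high local background. The median background was 3.97 fragments at the members and 1.82 in the full-length list, while the median fold was 6.93 at the members and 7.36 in the list. The records of ADAMTS6, ADAMTS12 and ADAMTS16 had a median pileup of 37, a median background of 4.34 and a median fold of 6.65. The 7 records of the other members had a median pileup of 24 over a background of 1.57, and a median fold of 9.31. In these medians the high-pileup genes stood out in fragments over the summit and not in the ratio to local background. That background was taken to count fragments of the same pool per 10 kb, those of the record and close neighbours among them. Pileup, background and fold are therefore not independent.

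ADAMTS12 and ADAMTS16 lie on the short arm of chromosome 5 (5p), where records as a class had more fragments. The 454 full-length records on 5p had a median pileup of 31, a median background of 3.57 and a median fold of 6.75, and 28.2% were in the upper 5%. Records off chromosome 5 had a median pileup of 20, a median background of 1.77 and a median fold of 7.39, and 4.3% were in the upper 5%. The 25 member records on 5p had a median pileup of 35 over a background of 4.34, with 10 of 25 in the upper 5%, and the 429 other records on 5p had 31 over 3.53, with 27.5%. The medians of both genes together ran near those of their chromosome arm, and the part of the arm in their pileups was not tested. ADAMTS6, on 5q, lay among 1185 records with a median pileup of 22, a median background of 2.12 and 7.68% in the upper 5%.

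By length, the records of both genes, which were chosen for them, were denser than those of the arm. On 5p there were 0.946 records per 100 kb, against 0.619 in the genome and 4.38 in the bodies of ADAMTS12 and ADAMTS16. These bodies held 24 records, or 5.29% of the records on 1.14% of the arm. Of the 155 protein-coding genes on 5p, 56.1% had a record in the body, 4 had at least as many body records as ADAMTS12 and 5 as ADAMTS16, both genes counted.

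**Figure D3:**
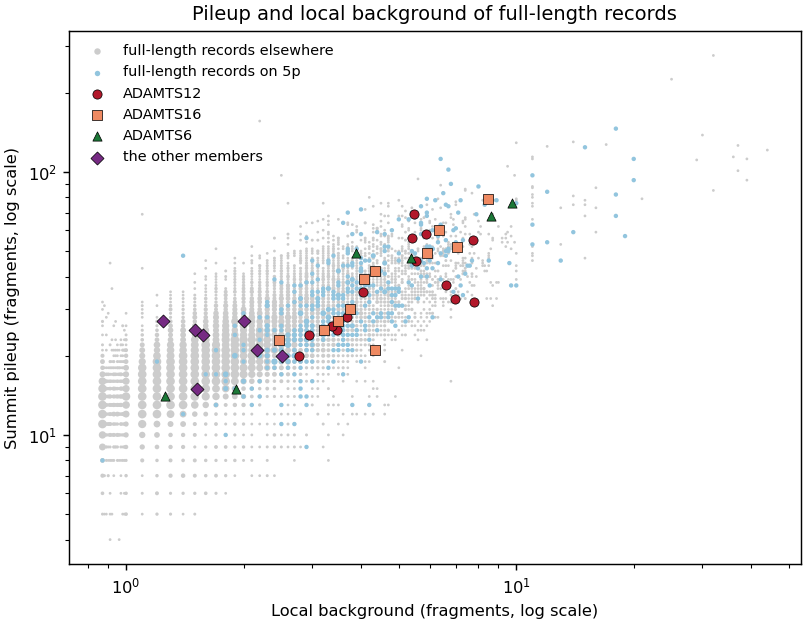
Pileup against local background, both in fragments on log scales, for all full-length records, with those on 5p and at the members marked and point area growing with the number of coinciding grey or blue records. The records of ADAMTS12 and ADAMTS16 lie among the other 5p records, at backgrounds of 2.46 to 8.45, and the 4 highest records of ADAMTS6, on 5q, have backgrounds of 3.89 to 9.75.

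AP-1 factors bind enhancers in many cell types, and TGANTCA, which reads the same on both strands, was searched within 150 bp of each summit. It was found in 16 of 38 member records (42.1%, 95% Wilson limits 27.9 to 57.8) and in 50.2% of all full-length records, a value inside the members' limits. These limits take the records as independent, although 31 of the 38 lay at 3 genes chosen for their records, so they do not judge the difference. In introns the shares were 48.1% of 27 member records and 59.6% of all intronic records. The motif was unevenly placed within ADAMTS12: 0 of its 5 records in the upper 5% held a match (limits 0 to 43.4%) and 7 of the other 9 did (45.3 to 93.7%), a split chosen after the values were seen. The 0 depends on the window, since the high record with a pileup of 46 held 1 match over its whole width. Within 150 bp of the summit the counts at ADAMTS16 were 3 of 5 and 2 of 6, and at ADAMTS6 2 of 4 and 0 of 2. Over the whole list the shares were 52.8% at or above the limit and 50.0% below it. GGAATG, the TEAD motif, was within 150 bp of 34.2% of member summits and 27.8% of all summits on either strand, and TGTGGT, the RUNX motif, of 31.6% and 24.0%. These are matches of letters in a window, not sites shown to be bound.

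With dZF-ZNF469 no record lay in or within 20 kb of any member, and 0.125% of protein-coding genes had one. The dZF record nearest to a member was 1.40 Mb from ADAMTS14, and the next were 5.13 Mb from ADAMTS16 and 16.0 Mb from ADAMTS12. At this background share, 0 of 10 members is also what the list as a whole would give, and nothing is read from it. The lowest local background of the full-length list was 1.38 times that of the dZF list. With pileups and backgrounds of the full-length records divided by this ratio, 35 of the 38 member records (92.1%) had a −log10 p above 7.62, the lowest of the dZF list, and with 2 times the ratio 20 did. At the ratio itself 85.3% of all full-length records did. The lists were filtered by IDR and not by p, and the full-length list holds records down to a −log10 p of 2.16. These counts therefore do not show which records the filter would have kept. The ratio measures depth only indirectly, its part in the missing dZF records was not tested, and the amounts of the 2 proteins were not analysed here.

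The other 9 ADAMTS genes had fewer records, and the counts of genes with a record here stand beside 52.0% of all protein-coding genes. With 1 each in ADAMTS3, ADAMTS8 and ADAMTS18 and 2 at ADAMTS13, 4 of 9 (44.4%) had a record, 0 of them in the upper 5%, and the highest pileups were 33 (22.7 to 46.3) at ADAMTS13, which cleaves von Willebrand factor, and 23 at ADAMTS18. ADAMTS3 is the third procollagen N-proteinase. ADAMTS19, which is 278 kb long and also on chromosome 5, had none, nor had ADAMTS7, ADAMTS10, ADAMTS15 and ADAMTS20. Of the 7 ADAMTS-like genes, which lack the protease domain, 5 had records: THSD4 (ADAMTSL6) had 10 with a highest pileup of 48, ADAMTSL4 5 in its flanks with a highest of 39, ADAMTSL1 4 with a highest of 29, and ADAMTSL3 and PAPLN 1 each.

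**Figure D4:**
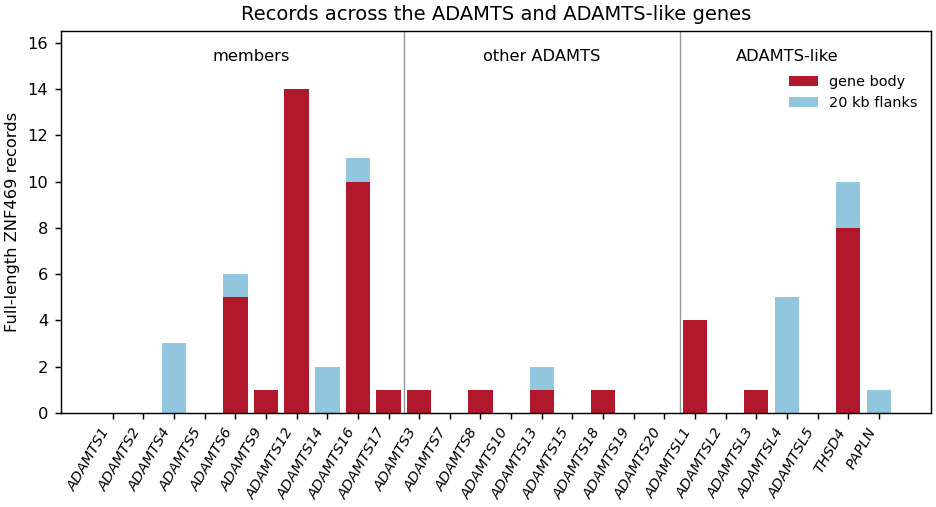
Number of full-length ZNF469 records in the gene body and in the 20 kb flanks of the 10 members, the 9 other ADAMTS genes and the 7 ADAMTS-like genes. ADAMTS12 (14), ADAMTS16 (11) and ADAMTS6 (6) hold most of the member records, and THSD4 (10) is the highest of the other genes.

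The substrates of the enzymes had records of their own, and in pileup, though not in fold, those of COL1A1 and COL3A1 were above the records of their processors. By the same rule 52.0% of all protein-coding genes had a record. All 5 fibrillar procollagen genes of the list had records: COL1A1 had 14 with a highest pileup of 138 (116 to 163), COL3A1 9 with a highest of 277 (245 to 312), COL1A2 3 with a highest of 41 (29.4 to 55.6), COL5A1 6 and COL2A1 2. Against these, ADAMTS2 had 0 and ADAMTS14 had 2 with a highest of 27, whose limits overlapped those of COL1A2. The folds ran the other way: the median was 4.02 at COL1A1 (highest 9.5) over a median background of 25.7, and 5.04 at COL3A1 (highest 8.54) over 15.0, beside the folds of 9.31 and 10.4 at ADAMTS14. For the proteoglycan enzymes neither side had a record in the upper 5%: versican (VCAN) had 3 records with a highest pileup of 25, NCAN and BCAN had 1 each in the flanks, and aggrecan (ACAN) had 0.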

How the data were processed

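ZNF469 CUT&RUN libraries from LX-2 cells, 3 per construct, were analysed from 2 deposited peak lists in hg38. Per the labels the processing tools were bcl2fastq, Bowtie2 2.3.4.3, MACS2 2.2.5, deepTools 3.5.1 and R 4.2.1. The authors pooled the libraries and filtered the peaks by their irreproducible discovery rate (IDR). The deposited columns used were the IDR score, the fold (a ratio to local background), the −log10 p-value and the summit offset in bp, and the −log10 q-value was not used. One whole-number pileup fitted both fold and −log10 p of each record (largest miss 6.9e-05 in −log10 p). For backgrounds under 3 fragments and above the lowest (15624 full-length and 31 dZF records), the local background was a whole number of steps of 103 bp (full-length) or 88 bp (dZF) per 10 kb, within 0.02 steps, so it was taken to count fragments of the pool itself. The total reads per library were not analysed here. Genes, exons and introns followed GENCODE version 44, introns those of the canonical transcript, and promoters reached 3 kb from any transcript start. The border of 5p was set at 48 Mb. Scripts used Python 3.11.15, pandas 2.3.3, scipy 1.17.1 and pysam 0.24.0, and the recovery of pileups was tested on simulated data.

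The members and gene lists were chosen with earlier results of these data known. All members were named, and of other listed genes those with a record, with the highest pileup of at most 3 per list. One neighbouring gene is not reported here. Groups followed the titles. With 1 pooled list per construct there was no test, no SD and no library to leave out. Alternatives changed the flank, the IDR score, the fold, the overlap rule, the motif and its window, the scaling and the ranking.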

Additional observations from a re-analysis of the deposited data

How the results depend on the processing

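Of 62 alternatives over 8 results, 49 left the value within the range set for it, 13 moved it and 0 reversed it, and 12 of them were chosen after seeing the data. No paired analysis was possible because no result comes from a test and the libraries were pooled, and for the same reason no replicate could be left out. The number of member records fell from 38 to 25 at an IDR of at most 0.01, to 13 in the upper 50% by fold, to 7 in the upper 25% by fold, to 24 without ADAMTS12 and to 13 without ADAMTS12 and ADAMTS16. The median pileup rose from 31 to 46 at that IDR and to 47 in the upper 50% by fold. The median background rose to 5.40 at that IDR and was 2.01 in the upper 25% by fold and also without the genes on 5p. The share of records with TGANTCA was 15.8% within 50 bp of the summit, where it was 25.9% over the full list. With a depth ratio of 2 times the measured one, 20 member records kept a −log10 p above 7.62, the lowest of the dZF list. Ranked by fold, 1 member (ADAMTS4) was in the upper 5% in place of 3, and none of those 3 remained. Under the alternatives run for them, the number of members with a record stayed between 5 and 8 and that of dZF records at 0. Pileups of 21 to 27 fragments had limits that overlapped one another, so the counts cannot order the lower 4 members.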

Other observations

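Other genes around the ADAMTS enzymes were described by the same rule, by which 52.0% of all protein-coding genes had a record. The lists were chosen with earlier results known, and nothing is read from their counts. Of 5 genes of procollagen C-propeptide removal, 3 had records: BMP1, the C-proteinase, had 3 with a highest pileup of 35 (24.4 to 48.7), and its enhancers PCOLCE and PCOLCE2 had 2 each with highest pileups of 31 and 22, while TLL1 and TLL2 had 0. Among 5 genes that control ADAMTS activity or uptake, SDC4 had 4 with a highest pileup of 35, LRP1, an endocytic receptor, had 3 with a highest of 21, FURIN, which activates the proenzymes, had 1 with 33, the inhibitor TIMP3 had 1, and A2M had 0.

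Fibrillins, the microfibril proteins linked to ADAMTS6, ADAMTS17 and the ADAMTS-like proteins, were uneven. FBN1 had 10 records with a highest pileup of 34 (23.5 to 47.5), 9 of them in its 237 kb body. FBN2, on chromosome 5, had 2 with a highest of 28, and FBN3 had 0. None of the genes in these 3 lists had a record in the upper 5% of pileups or a dZF record. Of all protein-coding genes, 4.1% and 0.125% had one.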
